A study of Saccharomyces cerevisiae with 8 samples.

Results

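The transcriptome of wild type ScY01a, the industrial haploid strain from which the deletion strains of the study were made, was described from 2 of the 8 RNA-seq libraries of the series. All 6103 rows of the table were ranked by the mean of wild type replicates 2 and 3, and the description rests on those 2 libraries alone except where another strain is named. ScY01a is a *MATa* haploid of *Saccharomyces cerevisiae* derived from the evolved thermotolerant diploid ScY01. All strains were grown at 30°C in YP medium with 200 g/L glucose and harvested after 10 h. The paper calls its RNA cultures at elevated temperature and its flask fermentations at 30°C micro-aerobic. It does not state the aeration of the 30°C cultures for RNA separately. The paper calls the cells exponential at both of its temperatures, but its methods give the early log phase only for the cultures at elevated temperature. The other 6 libraries are 2 each of *sin3∆*, *srb2∆* and *mig1∆*, in which a KanMX cassette took the place of the whole reading frame in ScY01a. *SIN3* encodes the scaffold of a histone deacetylase complex, *SRB2* a subunit of Mediator, and *MIG1* a repressor of genes for other carbon sources. The study's methods describe biological duplicates for its cultures at elevated temperature and call those at 30°C a different batch. They do not say so of the 30°C cultures themselves, so the spread of the 2 libraries of a strain may be technical.

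The strain labels were checked first. *SIN3*, *SRB2* and *MIG1* were each listed at 0 in both libraries of their own deletion and at 17.1 to 84.2 RPKM in the wild type. Of the genes that mark *MATa* cells, the pheromone receptor gene *STE2* was at 477 and 463 RPKM in wild type replicates 2 and 3. The other measured a-cell genes, *AGA2*, *BAR1* and *STE6*, lay between 45.3 and 334 RPKM. The a-factor genes *MFA1* and *MFA2* were listed at 0 in all 8 libraries, as was every protein-coding gene of up to 150 bases. The alpha-cell receptor gene *STE3* was at 0.095 and 0.152 RPKM. The other alpha-cell genes, *MF(ALPHA)1*, *MF(ALPHA)2* and *SAG1*, lay between 2.55 and 21.8 RPKM. The rows of the silent or mating-type alpha2 gene, *HMLALPHA2* and *MATALPHA2*, were higher, both at 75.7 and 86.5 RPKM, level with *BAR1* at 79.3 and 78.4 RPKM. They are identical in sequence and cannot be told apart, and the alpha1 rows were listed at 0.

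The 2 wild type libraries ranked the genes alike but differed by gene length. Over 4779 genes of at least 10 RPKM that were above 0 in both libraries, 96.5% differed by less than 1.5-fold and 25 by more than 2-fold. Genes at 0 in a single library, such as *COX7* at 774 and 0 RPKM, are not in this count. The median log2 difference, replicate 3 minus replicate 2, was 0.38 for genes of up to 300 bases and -0.40 for genes over 4000 bases. Ribosomal protein genes of up to 500 bases had medians of 0.39 and 0.31, close to the 0.37 and 0.28 of the other genes in the same classes. A level of a short gene is therefore given for each library, and the part of library preparation in this trend was not tested.

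Budding yeast ferments glucose to ethanol even in air. Sugar enters through the *HXT* hexose transporters, is phosphorylated by hexokinases or glucokinase, and is split by glycolysis to pyruvate, which pyruvate decarboxylase and alcohol dehydrogenase turn into ethanol. Most of these steps have several isozymes, often left by the ancestral genome duplication, and one copy is commonly used in growth on sugar while another is tied to respiration or stress. High sugar is also an osmotic load, which yeast answers with glycerol.

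Pairs of coding sequences show why some levels of close copies are uncertain. The first 60 coding bases of 3 leading isozyme pairs are given from the R64 genome, with the bases that differ within a pair in capitals. *TDH3* lies at chrVII:883751-883810 and *TDH2* at chrX:454622-454681, both on the minus strand. *ENO2* lies at chrVIII:451327-451386 and *ENO1* at chrVII:1000927-1000986, both on the plus strand. *ADH1* lies at chrXV:160535-160594 and *ADH2* at chrXIII:874278-874337, both on the minus strand.
TDH3: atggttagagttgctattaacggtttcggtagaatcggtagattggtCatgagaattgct
TDH2: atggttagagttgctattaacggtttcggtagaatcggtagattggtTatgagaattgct
ENO2: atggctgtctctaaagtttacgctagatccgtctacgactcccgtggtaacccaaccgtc
ENO1: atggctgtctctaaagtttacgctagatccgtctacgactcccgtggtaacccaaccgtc
ADH1: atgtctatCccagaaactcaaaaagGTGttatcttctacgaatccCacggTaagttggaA
ADH2: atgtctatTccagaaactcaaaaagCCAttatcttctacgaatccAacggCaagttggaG

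Over these 60 bases *TDH3* and *TDH2* differed at 1 base, *ENO2* and *ENO1* at 0 and *ADH1* and *ADH2* at 7. Over the whole reading frame the identity was 95.8% for *TDH3* and *TDH2*, 94.8% for *ENO2* and *ENO1*, and 88.8% for *ADH1* and *ADH2*. Reads had 150 bases, and the longest identical runs of these pairs were 173, 112 and 189 bases. *TEF2* and *TEF1* were 99.9% identical with a run of 761 bases, *EFT1* and *EFT2* 99.8% with a run of 1262 bases, and *HXT6* and *HXT7* 99.8% with a run of 1631 bases. The split between the genes of those 3 pairs is therefore uncertain, and only their sums can be read. *TDH3* with *TDH2* and *ADH1* with *ADH2* also share a run longer than a read, and misassigned reads between them were not tested.

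Transcript levels fell off steeply with rank, and a few genes held much of the library. The 20 genes highest in a library held 20.6% and 21.6% of its summed RPKM in replicates 2 and 3. It took 179 genes in replicate 2 and 153 genes in replicate 3 to reach 50% of the sum. The 7 genes with a mean of 10000 RPKM or more held 10.4% and 11.7%. At the other end, 3489 genes, 57.2% of the rows, had a mean of 10 to under 100 RPKM, and together they held 15.6% and 14.2%. A percent of summed RPKM is a share per length of transcript, so it counts a short transcript like a long one.

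**Figure D1:**
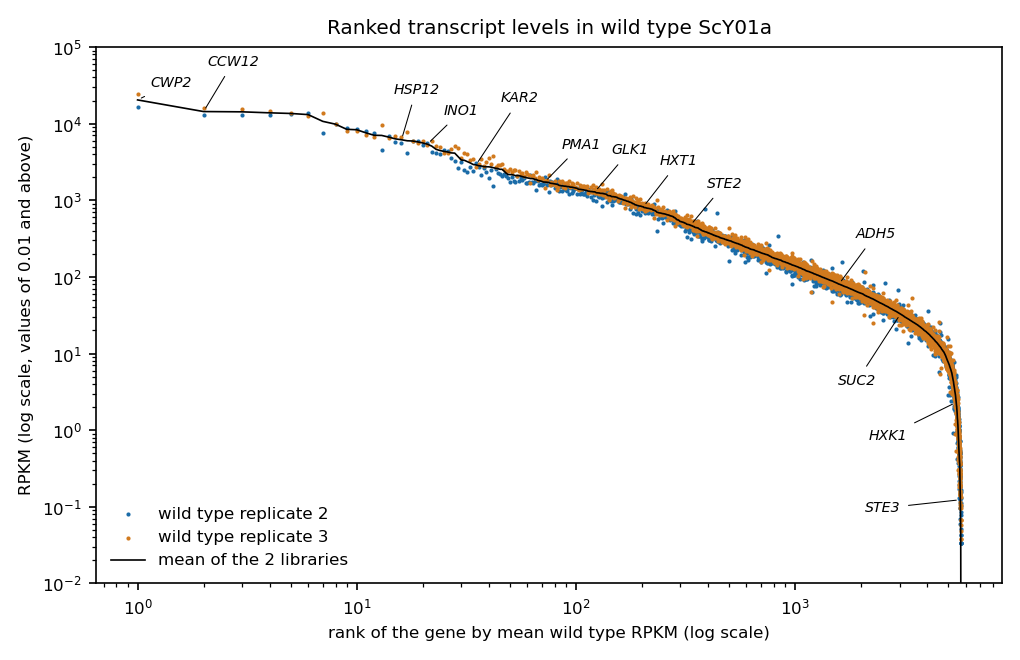
RPKM of every gene above 0 in wild type ScY01a against its rank by the mean of both libraries, both axes on a log scale. Points are replicate 2 and replicate 3, the line is their mean, and labelled genes run from *CWP2* at rank 1 to *STE3*, the alpha-cell receptor gene, at 0.095 and 0.152 RPKM.

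The transcript with the highest RPKM was that of a cell wall protein. *CWP2*, which encodes a mannoprotein linked to the wall glucan, was at 16283 and 24498 RPKM, and its reading frame is 279 bases long. How far its rank depends on the length used for RPKM was not tested. *CCW12*, another covalently linked wall protein, followed with 12783 and 15968 RPKM. *SED1*, a wall protein known from stationary cells, stood at rank 23 with 4115 and 5133 RPKM. The ranges of *CWP2* and *CCW12* did not overlap, while *CCW12* overlapped the next genes in the order.

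Ranks 3 to 6 went to glycolysis, and those 4 genes could not be put in order. *GPM1*, phosphoglycerate mutase, was at 12919 and 15587 RPKM. *FBA1*, the aldolase, was at 13136 and 14525 RPKM. *TDH3*, the main glyceraldehyde-3-phosphate dehydrogenase, was at 13436 and 13707 RPKM, and *ENO2*, enolase, at 13588 and 12644 RPKM. Their ranges overlapped one another. *TDH2*, *TPI1*, *PGK1*, *ENO1* and *CDC19* were also among the 20 highest genes, with means of 9834, 8430, 7587, 7044 and 6668 RPKM.

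Among the rest of the 20 highest genes were 3 ribosomal protein genes, *RPS28A*, *RPS30A* and *RPS30B*, whose values differed most between the libraries. *RPS28A* was at 7471 RPKM in replicate 2 and 13940 RPKM in replicate 3, and its reading frame has 204 bases. *TSA1* encodes the main cytosolic peroxiredoxin and was at 5789 and 6864 RPKM. *CPR1*, cyclophilin, was at 5260 and 5923 RPKM. *YDR524C-B*, a reading frame of 201 bases with no described product in the annotation, was at 5877 and 5987 RPKM, level with *ADH1* at 5917 and 5630 RPKM.

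Genes outside glycolysis and the ribosome that ranked this high included *HSP12* and *INO1*. *HSP12*, which encodes a small membrane-associated stress protein, was at 5590 and 6731 RPKM, rank 16. *INO1*, the synthase that makes inositol phosphate from glucose 6-phosphate, was at 5558 and 5235 RPKM, rank 21. It is known as a gene induced when inositol is scarce. *OPI3*, which makes phosphatidylcholine and answers to the same signal, was at 2649 and 2840 RPKM, rank 38. *KAR2*, the Hsp70 of the endoplasmic reticulum, was at 3099 and 2685 RPKM.

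The upstream windows of *HSP12* and *INO1* are given because both carry the letters of the element named for their known control. The *HSP12* window runs from 400 to 101 bases before the start codon, chrVI:106856-107155 on the plus strand of R64, and capitals mark the stress element AGGGG on either strand. The *INO1* window runs from 300 to 101 bases before the start codon, chrX:136034-136233 on the minus strand, and capitals mark the inositol element CATGTG on either strand.
HSP12: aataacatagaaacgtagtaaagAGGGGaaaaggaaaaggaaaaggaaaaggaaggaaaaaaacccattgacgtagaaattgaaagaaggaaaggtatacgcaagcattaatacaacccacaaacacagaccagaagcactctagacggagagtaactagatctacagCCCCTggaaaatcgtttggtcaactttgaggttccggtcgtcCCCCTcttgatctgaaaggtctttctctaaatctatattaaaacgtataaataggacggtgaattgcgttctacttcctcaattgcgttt
INO1: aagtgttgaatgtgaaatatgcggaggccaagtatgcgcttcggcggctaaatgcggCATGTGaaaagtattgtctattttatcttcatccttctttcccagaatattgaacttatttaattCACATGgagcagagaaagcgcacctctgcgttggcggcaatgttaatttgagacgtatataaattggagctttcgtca

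The *HSP12* window held 3 matches and the *INO1* window 2. Of 5976 windows of the same place and length, 23.5% held AGGGG, against 41.0% of the windows of the 100 highest genes. Of windows of the *INO1* length, 5.72% held CATGTG, against 8.0% for the 100 highest genes. In the windows from 400 to 101 bases of *TDH3* and *HXK1*, CTTCC and GCGGGG, the letters of the Gcr1 and Mig1 elements, had 0 matches each, which says only that these letters are not in those windows. CTTCC stood in 47.1% of all windows and GCGGGG in 3.82%. These counts describe letters and are no test of binding.

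Abundant transcripts used a narrow set of codons. In the 100 highest genes of at least 300 bases, AGA made up 82.2% of arginine codons, against 47.6% over all 5507 genes. GGT made up 87.8% of glycine codons in those 100 genes and 45.5% over all. TTG made up 66.9% of leucine codons and 28.2% over all. The share of 6 such codons among the codons of their amino acids had a Spearman correlation of 0.51 with the mean RPKM over 5506 genes. Coding length had one of -0.34 and the GC content one of 0.33 over 5507 genes. The genes share the 2 libraries and are not independent, so no p-value is given.

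Ribosomal proteins and glycolysis led the processes. The 138 cytosolic ribosomal protein genes held 19.4% and 22.6% of the summed RPKM, 21.0% ± 2.28 (SD, n = 2). The 17 glycolytic genes held 11.9% and 10.7%, 11.3% ± 0.80 (SD, n = 2). The order of the leading processes turned when each value was multiplied by gene length. Glycolysis then held 14.1% and the ribosomal proteins 10.1%. These are shares of sequenced bases only if the values had been divided by full gene length, which was not tested. Of the 100 highest genes, 43 were ribosomal protein genes and 10 were glycolytic.

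Cell wall proteins came next, with 43 genes at 5.60% ± 0.55 (SD, n = 2) of the sum, and *CWP2* alone held 40.0% of that list. Redox defence held 2.34% ± 0.08, led by *TSA1* and the peroxiredoxin *AHP1* at 4002 and 4899 RPKM. Translation factors held 2.14% ± 0.10 and ethanol fermentation 1.89% ± 0.25. The 14 genes for stress hydrophilins and membrane stress proteins held 1.60% ± 0.07, above the 38 chaperones with 1.30% ± 0.12, and the libraries of the 2 lists did not overlap. This order also turned when values were multiplied by gene length, with 0.99% for the stress list and 2.36% for the chaperones. *HSP12* held 42.4% of the stress list, and *SPI1*, a wall protein induced by stress, was at 2011 and 2305 RPKM. The chaperones were led by *SSA1*, a cytosolic Hsp70, at 1053 and 965 RPKM, and *HSP26*, which encodes a small heat shock protein, was at 608 and 708 RPKM.

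Genes for making amino acids and ribosomes took small shares next to the ribosomal proteins themselves. Amino acid synthesis, with 69 genes, held 0.73% ± 0.07, and the 61 ribosome assembly genes held 0.56% ± 0.03 (SD, n = 2). Thiamine and vitamin B6 genes held 0.93% ± 0.03 over 23 genes, led by *THI20*, which phosphorylates the thiamine precursor, at 1635 and 1824 RPKM. Respiratory chain and ATP synthase genes of the nucleus held 1.33% in both libraries, and the citrate cycle 0.19% ± 0.01. The lists together held 60.8% and 62.1% of the sum with 1014 genes.

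The smallest shares went to genes for other carbon sources and for meiosis. Glyoxylate cycle and gluconeogenesis genes held 0.029% ± 0.003, of which *MDH3*, the peroxisomal malate dehydrogenase, made up 56.7%. *MLS1*, malate synthase, was at 13.5 and 14.9 RPKM, *FBP1*, fructose bisphosphatase, at 6.36 and 6.91 RPKM, and *PCK1*, which feeds gluconeogenesis, at 0.41 and 0.86 RPKM. Genes for sugars other than glucose held 0.013% ± 0.001. *SUC2*, invertase, led them with 34.4 and 31.1 RPKM, and the galactokinase gene *GAL1* was at 4.17 and 2.47 RPKM. Early meiosis held 0.017% ± 0.001, led by *REC107* at 30.8 and 29.1 RPKM.

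**Figure D2:**
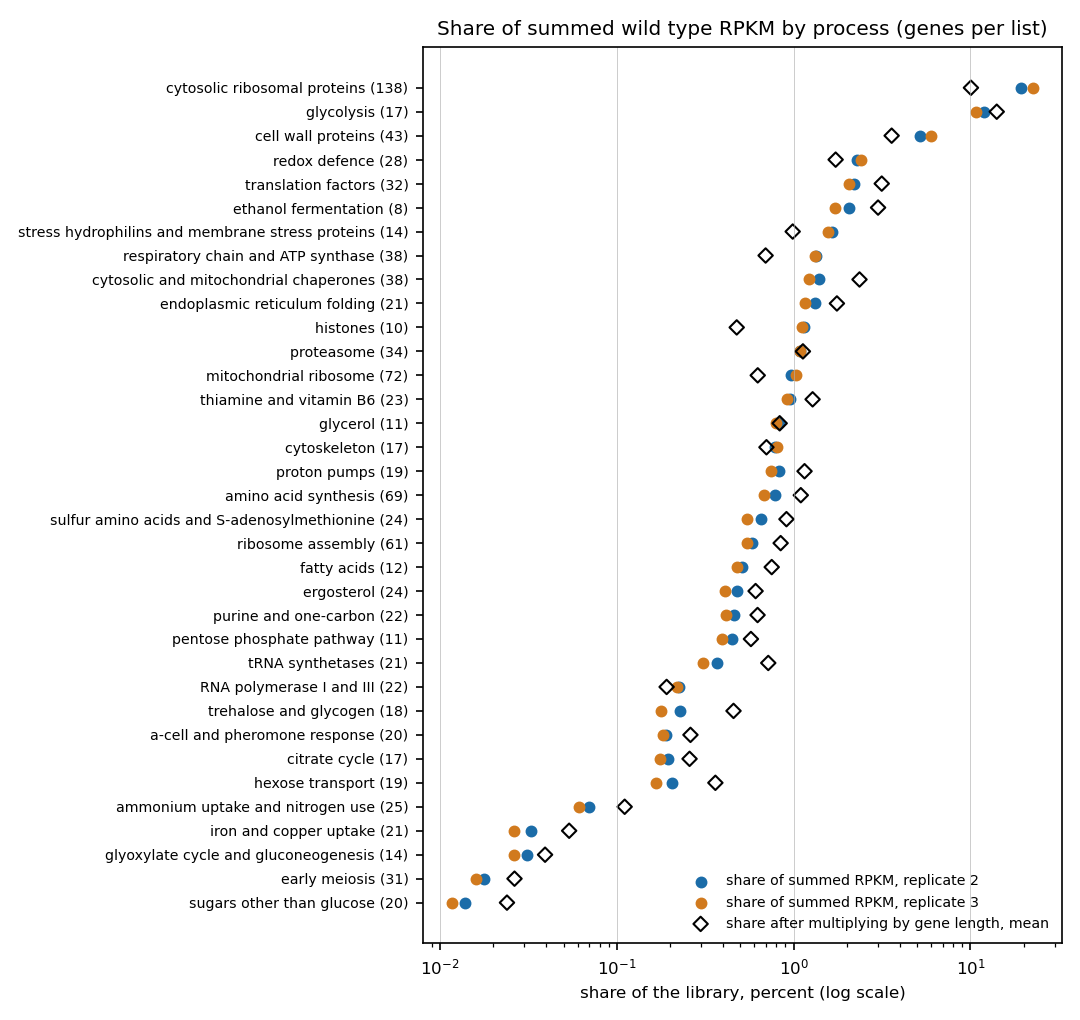
Share of the summed RPKM held by each of 35 gene lists in the wild type, in percent on a log axis, with the number of genes of each list. Filled points are replicates 2 and 3, and open diamonds are the mean share after each value was multiplied by gene length, which lowers the ribosomal proteins from 21.0% to 10.1% and raises glycolysis from 11.3% to 14.1%.

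Isozyme choice was examined in 42 families with 117 genes in the table. The same gene led in both wild type libraries in all 42 families, and in 39 the lower value of the leader was above the higher value of the second gene. Without the families of elongation factor 1A, elongation factor 2 and Hsp70 Ssb, whose first 2 genes share an identical run of over 500 bases, these counts were 39 of 39 and 36. The 3 exceptions were *PFK1* and *PFK2*, *HMG2* and *HMG1*, and *SSA1* and *SSA2*. The leader held over 90% of its family in 13 families and under 60% in 9, with or without those 3 families.

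At the entry of glycolysis, glucokinase led. *GLK1* was at 1334 and 1237 RPKM and held 68.5% and 67.3% of its family. *HXK2*, the hexokinase known to lead in cells grown on glucose, was at 494 and 489 RPKM. *EMI2*, a close relative of *GLK1*, was at 118 and 111 RPKM, and *HXK1*, the other hexokinase, at 2.62 and 1.99 RPKM. The 4 genes were in the same order in both libraries with no overlap. *PFK1* and *PFK2* encode the subunits of one enzyme, phosphofructokinase, and were near each other in each library, at 405 and 380 RPKM in replicate 2 and at 312 and 291 RPKM in replicate 3.

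Further down the pathway the second copies were also abundant. *TDH3* held 48.6% and 49.5% of the glyceraldehyde-3-phosphate dehydrogenase transcripts, *TDH2* was at 9857 and 9811 RPKM, and *TDH1*, the copy tied to stress and stationary cells, at 4379 and 4146 RPKM. *ENO2* held 64.5% and 65.7% of enolase, and *ENO1*, which is known for expression off glucose, was at 7486 and 6602 RPKM. At 2 steps a single gene held nearly all. *GPM1* held 99.0% and 99.2% of phosphoglycerate mutase, and *CDC19* held 99.2% and 99.4% of pyruvate kinase, with *PYK2* at 58.3 and 41.2 RPKM.

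In the fermentation branch *PDC1* held 89.1% and 90.6% of pyruvate decarboxylase, and *PDC5*, which is known to rise when *PDC1* or thiamine is missing, was at 1035 and 827 RPKM. *ADH1*, which makes ethanol, held 71.6% and 76.2% of its family. *ADH2*, known as the glucose-repressed copy that consumes ethanol, came second with 1877 and 1354 RPKM, rank 82. Its run of 189 bases shared with *ADH1* is longer than a read, and misassigned reads between these genes were not tested. Acetaldehyde dehydrogenases were led by the cytosolic *ALD6* at 277 and 287 RPKM, and *ALD3*, a stress-inducible copy, followed with 202 in both libraries. *ACS2* held 98.6% and 98.5% of acetyl-CoA synthetase, and the glucose-repressed *ACS1* was at 5.48 and 5.06 RPKM.

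Glycerol formation was led by *GPD1* and *GPP1*. *GPD1*, the glycerol-3-phosphate dehydrogenase induced by osmotic stress, was at 1266 and 1196 RPKM, and *GPD2*, tied to growth without oxygen, at 284 and 260 RPKM. *GPP1* was at 3183 and 3521 RPKM and *GPP2*, the osmotically induced phosphatase, at 1781 and 1957 RPKM. The 11 glycerol genes held 0.81% ± 0.02 (SD, n = 2) of the sum. In trehalose and glycogen synthesis *TPS1* led with 723 and 653 RPKM.

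Of 17 hexose transporter genes, 2 low-affinity carriers led. *HXT1*, the carrier induced at high glucose, was at 866 and 774 RPKM and held 49.6% and 49.3% of the family. *HXT3*, which is also of low affinity, was at 658 and 596 RPKM. *HXT5*, a carrier of slowly growing cells, was next with 84.1 and 79.8 RPKM. The high-affinity *HXT2* was at 5.36 and 4.49 RPKM, and *HXT16* was listed at 0. *HXT6*, at 29.2 and 28.3 RPKM, and *HXT7*, at 11.4 and 7.38 RPKM, can be read only as a sum. The 19 hexose transport genes, which include the sensors, held 0.19% ± 0.03 of the sum.

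Outside sugar metabolism catalase was led by the copy known from stress, and some other families by the copy known from growth in air. *CTT1*, the cytosolic catalase of the stress response, held 98.0% of catalase in both libraries, with the peroxisomal *CTA1* at 9.98 and 9.86 RPKM. *CYC1* held 93.8% and 93.3% of cytochrome c and *HYP2* 99.3% and 99.0% of eIF5A, and both are the copies known for growth in air. *COX5A* led cytochrome oxidase subunit 5 with 66.3% and 60.5%, while *COX5B*, known as the copy of cells without oxygen, was at 105 and 132 RPKM. *PMA1* held 98.6% and 98.4% of the plasma membrane proton ATPase. *TEF2*, at 4509 and 4172 RPKM, and *TEF1*, at 2681 and 2978 RPKM, encode elongation factor 1A and again can be read only as a sum.

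**Figure D3:**
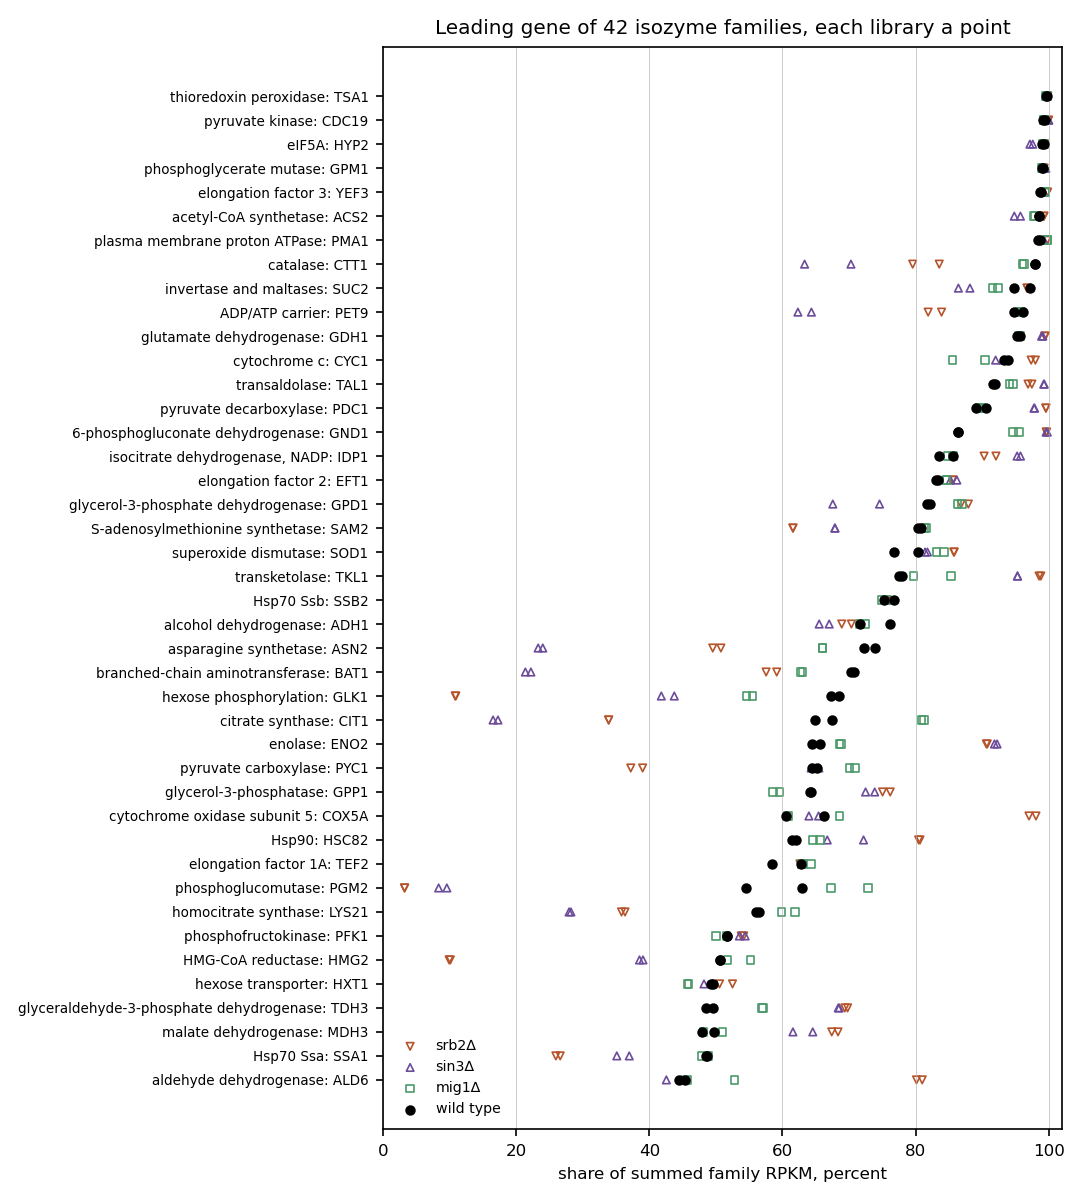
Share of the summed RPKM of each of 42 isozyme families held by the gene that led in the wild type, in percent, with each library as a point. Black points are the 2 wild type libraries, and coloured symbols are the libraries of *mig1∆*, *sin3∆* and *srb2∆*; *GLK1* held 68.5% and 67.3% in the wild type and lies lower in each deletion strain.

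The leader was chosen by its wild type level, so its share in other strains is a description with no test. The wild type leader also led in both libraries of *mig1∆* in 40 families, of *sin3∆* in 33 and of *srb2∆* in 34. Another gene led in both libraries in 0, 8 and 7 families. In hexose phosphorylation *HXK2* led in both *sin3∆* and *srb2∆*. The leader in both strains also passed from *PGM2* to *PGM1*, from *CIT1* to *CIT2* and from *LYS21* to *LYS20*. *HMG1* and *SSA2* led in both strains too and are counted above. The wild type ranges of *HMG2* and *HMG1* and of *SSA1* and *SSA2* overlapped, so no wild type leader was resolved there. In *sin3∆* alone the leader passed from *ASN2* to *ASN1* and from *BAT1* to *BAT2*, and in *srb2∆* alone from *PYC1* to *PYC2*. *SSA1* and *SSA2*, *LYS21* and *LYS20*, and *PYC1* and *PYC2* share identical runs of 383, 278 and 200 bases. These are longer than a read, and misassigned reads were not tested. For the isozyme list as a whole, levels of single genes were compared by limma on log2(RPKM + 1), where a call needed a 2-fold change with a Benjamini-Hochberg adjusted p of at most 0.05 over 5628 genes. The RNA came from bulk cultures, so a loss of the transcript from some cells and less of it in every cell cannot be told apart. The 3 comparisons share the wild type libraries.

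Against the wild type, 21 of 110 tested isozyme genes were higher and 25 lower in *sin3∆*, that is 19.1% and 22.7%. Over all genes tested 17.7% were higher and 12.2% lower. In *srb2∆* 11 were higher and 38 lower, 10.0% and 34.5%, where 15.0% and 14.9% of all genes were. In *mig1∆* 10 were higher and 3 lower, 9.09% and 2.73%, where 0.995% and 0.657% of all genes were. The median log2 difference of the isozyme genes was -0.14 in *sin3∆*, -0.55 in *srb2∆* and 0.07 in *mig1∆*, and over all genes 0.01, -0.01 and 0.03.

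The glucokinase genes were lower in 2 strains. *GLK1*, the wild type leader, was at 354 and 401 RPKM in *sin3∆*, at 79.6 and 77.8 RPKM in *srb2∆* and at 1405 and 1364 RPKM in *mig1∆*, beside 1334 and 1237 RPKM in the wild type. *EMI2*, by the limma test, fell by 3.33 in *sin3∆* and fell by 3.96 in *srb2∆*. *HXK1* was the gene of this family that rose most in *mig1∆*, from 2.62 and 1.99 RPKM to 67.0 and 61.3 RPKM. Its log2 difference by limma was 4.31 ± 0.18 (SE, adjusted p = 0.00012). *EMI2* rose by 1.07 in *mig1∆*, and *HXK2*, at 812 and 840 RPKM, was below the fold required with a log2 difference of 0.75 ± 0.06.

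Further members of several families fell steeply in *sin3∆* and *srb2∆*. *TDH1* was at 195 and 229 RPKM in *sin3∆* and at 90.5 and 81.7 RPKM in *srb2∆*, beside 4379 and 4146 RPKM in the wild type. It is among the 30 highest wild type genes, so no test is given for it. In *sin3∆* and *srb2∆* the log2 differences were -5.18 and -4.50 for *PYK2*, -2.90 and -5.28 for *PDC5*, and -4.79 and -5.04 for *ALD3*. *GND2*, the second 6-phosphogluconate dehydrogenase, fell from 141 and 123 RPKM to 2.42 and 1.38 RPKM in *sin3∆* and to 1.36 and 1.22 RPKM in *srb2∆*. *ADH2*, in contrast, was at 2422 and 2270 RPKM in *sin3∆* and at 1566 and 1650 RPKM in *srb2∆* and was called in neither. It held 18.3% to 23.7% of its family in all 8 libraries, and reads of *ADH1* in its level were not tested. *PYK2*, *PDC5*, *ALD3* and *GND2* passed the limma test in both strains, with a highest adjusted p of 3.4e-06, for *PYK2* in *srb2∆*.

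Genes named for their high wild type level are given beside the other strains with no test. *CTT1*, the leading catalase, was at 27.6 and 37.2 RPKM in *sin3∆* and at 29.4 and 32.3 RPKM in *srb2∆*, beside 483 and 471 RPKM in the wild type. *HSP12* was at 9.51 to 24.2 RPKM in the 4 libraries of these strains and at 1822 and 2160 RPKM in *mig1∆*. *CWP2* was at 4989 and 5004 RPKM in *sin3∆* and at 6295 and 6366 RPKM in *srb2∆*. *INO1* was at 2060 and 2097 RPKM in *sin3∆* and at 231 and 237 RPKM in *srb2∆*. The libraries of both strains lay below both wild type libraries for each of these genes. They were picked for a high wild type level, so no trend is read from this. Other high genes went the other way. *PGK1* was at 11370 and 12038 RPKM in *sin3∆* and at 8548 and 8112 RPKM in *srb2∆*, beside 8090 and 7085 RPKM in the wild type. *RPS28A* also lay above both wild type libraries in both strains.

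Other isozyme genes were higher in a deletion strain. In *sin3∆* *ASN1* rose by 3.93, *BAT2* by 4.68, *AAC3* by 4.02 and *ALD5* by 3.22 on the log2 scale, from wild type means of 74.3, 38.2, 4.57 and 14.1 RPKM. In *srb2∆* *HXT2* rose by 3.95 ± 0.09, to 91.0 and 89.4 RPKM, while *COX5B* fell by 4.20 ± 0.19. In *mig1∆* the carrier *HXT3* rose by 1.45 ± 0.08 and *HXT4* by 1.69 ± 0.15, while *HXT1*, the wild type leader, was at 1814 and 1678 RPKM. *PMA2* fell there by 2.33 ± 0.14.

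**Figure D4:**
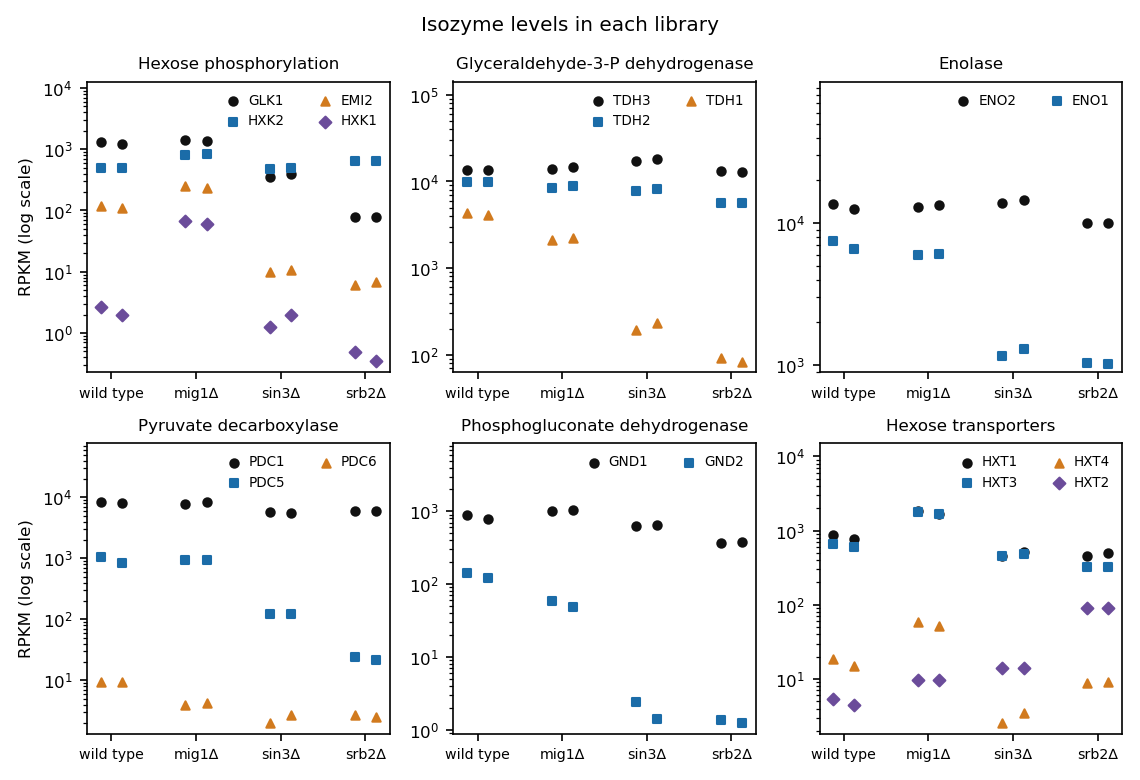
RPKM on a log axis of the members of 6 isozyme families in each of the 8 libraries, 2 points per strain. *GLK1* lies above *HXK2* in 2 strains, the wild type and *mig1∆*, and below it in the others, while *TDH1*, *ENO1*, *PDC5* and *GND2* lie far lower in the last 2 strains.

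The share of ribosomal protein genes set the wild type apart from 2 strains. Beside the 19.4% and 22.6% of the wild type it was 24.2% and 26.0% in *mig1∆*, 41.3% in both libraries of *sin3∆*, and 43.0% and 42.2% in *srb2∆*. Of 132 tested ribosomal protein genes, 111 were called higher in *sin3∆* and 115 in *srb2∆*, with 0 lower, and 0 in either direction in *mig1∆*. That is 84.1% and 87.1% higher, where 17.7% and 15.0% of all genes tested were. At an unadjusted p under 0.05 in limma 0 were lower in any strain, and 68 were higher in *mig1∆*, 51.5% against 16.8% of all genes, with a median log2 difference of 0.29. These counts depend on the scale. When all libraries were brought to the same sum they were 72 and 87, and after quantile normalization 35 and 35. Over all genes, 649 and 588 of 5633 were called higher in *sin3∆* and *srb2∆* at the same sum. After quantile normalization 844 and 812 of 5628 were. Glycolysis held 7.99% and 8.27% in *sin3∆* and 6.29% and 6.27% in *srb2∆*, with 4 and 5 of its 17 genes called lower, 23.5% and 29.4%, where 12.2% and 14.9% of all genes were.

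In all, 397 rows were at 0 in both wild type libraries. They were 316 of 5977 protein-coding genes and 81 of 126 other rows, among which 60 of 81 small nuclear and nucleolar RNAs were at 0. All 107 protein-coding genes of up to 180 bases were at 0, and the shortest reading frame above 0 had 183 bases in replicate 2 and 189 in replicate 3. From 181 to 210 bases 20 of 53 genes were at 0. Up to 300 bases 156 of 317 genes were at 0, and over 300 bases 160 of 5660. Genes at 0 included parts of the ribosome, which every cell uses. The ribosomal protein genes *RPL29* and *RPS29A* and the cytochrome oxidase gene *COX9* were listed at 0, and *RPL29* was at 5726 RPKM in *sin3∆* replicate 1 and at 0 in the other 7 libraries. A value of 0 for a gene of this length is no measure of absence.

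**Figure D5:**
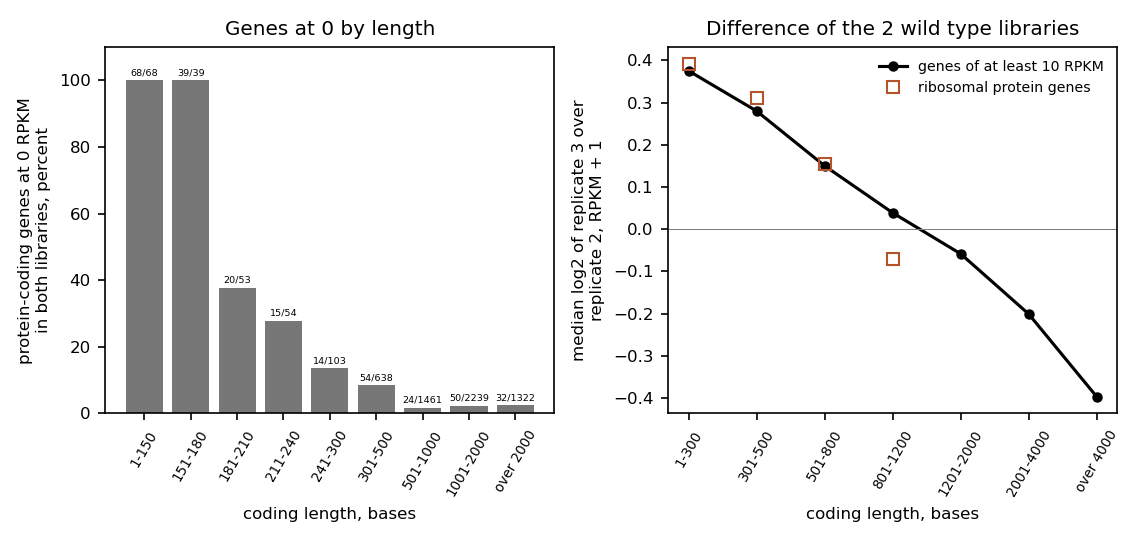
Left, the percent of protein-coding genes at 0 RPKM in both wild type libraries by coding length, with counts over the bars, 100% up to 180 bases. Right, the median log2 difference of replicate 3 from replicate 2 by coding length, which runs from 0.38 to -0.40. The genes have at least 10 RPKM and are above 0 in both libraries, with ribosomal protein genes as open squares.

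Close to this length the 2 wild type libraries parted. *COX7*, a cytochrome oxidase subunit gene of 183 bases, was at 774 RPKM in replicate 2 and 0 in replicate 3. *DDR2*, a stress gene of 186 bases, was at 675 and 0 RPKM, and *TOM6* and *TOM7*, subunits of the import pore of mitochondria, were at 338 and 155 RPKM in replicate 2 and at 0 in replicate 3. In all 53 rows were at 0 in replicate 3 alone and 26 in replicate 2 alone.

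Many of the longer genes at 0 were Ty elements or lay close to a chromosome end, and others were neither. Of the 160 protein-coding genes over 300 bases at 0, 57 lay within 30 kb of a chromosome end, where 356 of 5660 such genes lie. Of 92 rows with a Ty element gag or gag-pol product, 56 were at 0. The remaining 49 of the 160 genes were in neither class. For near-identical copies a 0 may stand for reads given to another copy, and the identical *HMLALPHA2* and *MATALPHA2* rows carried the same values. The genes at 0 included *ENB1*, a transporter of iron-bound siderophores with a reading frame of 1821 bases. *ENB1* was at 48.7 and 47.6 RPKM in *sin3∆* and at 19.3 and 18.1 RPKM in *srb2∆*. *SAE3*, a meiotic recombination gene, was at 0 in the wild type and at 35.6 and 31.7 RPKM in *sin3∆*. Of the 397 rows, 309 were at 0 in all 8 libraries and 88 were above 0 in another strain.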

How the data were processed

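RNA was sequenced as paired reads of 150 bases. The authors aligned them to R64 with Bowtie2 2.2.3 and obtained RPKM from RSEM, as their methods and submission notes state. The deposited RPKM values were TMM-normalized between libraries and summed to 862336 and 951533 in the 2 wild type libraries; TPM values would sum near there too. The authors' tables of comparisons hold their fold changes, p-values and FDR and were not used. Of the per-sample columns 0 were left out. Empty lines, 3 in number, are not reported here, and 5977 of 6103 rows were matched to R64 annotation. Low values were compared with whole multiples of a value per length. A fitted offset was first taken from each length, 290 bases in replicate 2 and 100 in replicate 3. Low values were near such multiples (tolerance 0.15, 30% if even) in 75% of 40 genes of replicate 2. Whether values of short genes were divided by a reduced length was not tested. In replicate 3 they were in 40% of 50 genes, so read counts were not recovered. The paper gives reads only as an average per library, so the depth of each library is unknown and precision is that of 2 libraries.

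Genes were ranked by the mean RPKM of wild type replicates 2 and 3. Levels, shares and zeros are descriptions with no test. For each deletion against the wild type, log2(RPKM + 1) of 5628 genes, each of 1 RPKM or more in 2 or more libraries, was fitted for the 4 groups together in limma 3.58.1 (R 4.3.3) with a trended prior and 4 residual degrees of freedom, which was tested on simulated data. Fold changes on this scale understate those of low genes. Named genes were the 30 highest, isozyme members, the 4 highest and the lowest of each list, the markers, the 10 genes at 0 with the highest level elsewhere, and the 10 genes of at least 10 RPKM whose 2 libraries differed most. *OPI3*, *FBP1*, *PCK1*, *GAL1*, *SPI1*, *HSP26* and the mating-type rows were named after their values were seen. Gene lists and members were chosen with earlier results of these data known. Mitochondrially encoded genes were not analysed here. Sequences and identities were taken from RefSeq R64 with Biopython alignment. Alternatives were other scalings, pseudocounts, filters, designs and left-out libraries.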

Additional observations from a re-analysis of the deposited data

How the results depend on the processing

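Read counts were not used and each strain had 2 libraries, so weak differences of low or short genes could not be resolved. The mean share of the 20 highest genes, 21.1%, became 25.4% without ribosomal protein genes. The number of genes that hold 50% of the sum, 166, became 266 after multiplying by gene length. The share of all process lists together, 61.4%, became 55.6% after multiplying by gene length, 60.5% without genes under 300 bases and 51.2% without ribosomal protein genes. The median share of the leading isozyme, 76.6%, became 75.2% after multiplying by length. Leaving out a wild type library gives the value of the other one and is no check of stability. The number of rows at 0 stayed within 1.5 times of 397 under each alternative tried, with 534 under 1 RPKM in both. Of the shares of single process lists, 99 values moved by more than the SD of the 2 libraries, all of them under the length or gene-set alternatives.

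The counts of called genes, 93 in *mig1∆*, 1680 in *sin3∆* and 1681 in *srb2∆*, stayed within 1.5 times under each alternative, at 62 to 117, 1340 to 1767 and 1324 to 1796. With all libraries at the same sum, the split in *sin3∆* turned from 995 higher and 685 lower to 649 and 1118, and in *srb2∆* from 844 and 837 to 588 and 1147, and the median of all genes shifted to -0.30 and -0.22 on the log2 scale. Of the named genes, 28 pairs of a gene and a deletion strain were chosen for the alternatives, *TDH1* and *ENO1* among them. These genes are also among the 30 highest of the wild type, so their calls are no test. All pairs but *HXK2* in *mig1∆* were called in the main fit. Of 402 values for these pairs, 400 kept direction and call, which is no check of genes with weaker differences. *HXK1* in *srb2∆* was no longer called at -0.98 under quantile normalization and at -0.43 with a pseudocount of 5. Leaving out genes under 300 bases was chosen after seeing the data. The wild type shares both its replicate numbers, 2 and 3, with *srb2∆* alone. The correlation of same-numbered deviations over genes was 0.07, which with 2 libraries per strain cannot show whether same-numbered libraries shared a batch. With the replicate block 1691 genes were called in *srb2∆* against 1681 without it.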

Other observations

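Several other groups had levels of note in the wild type. The 10 histone genes held 1.13% ± 0.02 (SD, n = 2) of the summed RPKM, led by the histone H4 gene *HHF2* at 2303 and 3172 RPKM. The 34 proteasome genes held 1.09%, all between means of 76.6 and 1229 RPKM, with *SEM1*, a short lid subunit gene, at 831 and 1627 RPKM and *RPN4*, the activator of the proteasome genes, lowest at 81.3 and 71.9 RPKM. In lipid synthesis *ACB1*, the acyl-CoA binding protein, held 60.3% of the fatty acid list at 2452 and 2959 RPKM, and *ERG20*, which makes farnesyl diphosphate, led ergosterol synthesis at 999 and 1006 RPKM. In the endoplasmic reticulum *PDI1*, protein disulfide isomerase, was at 1611 and 1469 RPKM and *ERO1*, which oxidizes it, at 862 and 790 RPKM.

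Iron and copper uptake was low throughout, 0.030% ± 0.005 of the sum over 21 genes. Its highest gene, the copper transporter *CTR1*, was at 31.2 and 28.3 RPKM, and *ENB1* was listed at 0. Ammonium uptake and nitrogen use held 0.065% ± 0.006, led by *UGA1*, a transaminase of GABA use, at 132 and 139 RPKM. *YDR209C*, at rank 45, overlaps *CPP2* on the other strand by 228 bases, so its level is uncertain where strand was not used in counting, and *CPP2* was listed at 0.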
